A study of Mus musculus with 4 samples.

Results

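Forkhead genes encode transcription factors that share a winged-helix DNA-binding domain, and some of them, such as the FoxA proteins, can bind their sites in closed chromatin. Families of forkhead factors act in different places: FoxO proteins are kept out of the nucleus by insulin signalling through Akt, Foxm1 drives genes of mitosis, and the FoxC, FoxD and FoxF proteins act in mesoderm and mesenchyme, where FoxF genes are known targets of Hedgehog signalling. An accessible promoter shows that the transposase used in the assay could enter the DNA there, and it does not by itself measure transcription.

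The set held every protein-coding gene of GENCODE M1 (mouse build mm9) whose symbol is Fox, a letter from a to s and a number, with or without a final letter. The rule found 43 of 22367 protein-coding genes, on 16 chromosomes. Of these, 42 symbols end in the number, and the other is Foxf1a, the symbol that this annotation uses for Foxf1.

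Chromatin accessibility was measured by ATAC-seq, in which a transposase cuts and tags open DNA, in limbs of mouse embryos at stage E11.5. The stop cassette group carried an inserted stop cassette, and the wild-type group did not; the series is about the long non-coding RNA Maenli, and the labels used here do not give the position of the cassette. Both groups had 2 libraries, both came from forelimb and hindlimb pooled, and both had the mixed strain background labelled c57bl6.J X 129S6.sv. The tissue was the whole limb, so every list pools all of its cell types, and the labels do not say whether the libraries of a group came from separate embryos. The summit names call the stop cassette libraries R1 and R2 but the wild-type libraries R1-1 and R1-2, so the wild-type libraries may be repeats of one sample. The SDs and p-values therefore measure the spread between these libraries, which may be technical, in wild type above all.

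Each library was deposited as a list of summits, the single bases of highest signal in called peaks, each with the authors' score. The lists held 79083 and 107827 summits in the stop cassette libraries and 51701 and 68471 in the wild-type libraries, so both stop cassette lists were longer. Sequencing depth is unknown, and a summit missing from a list was not called at that library's depth, which does not show a closed site. Scores are given below only as a percentile within their own list, where 100 is the highest score. Because the lists differ in length, the counts of genes and summits and the median percentiles below were also taken with every list reduced to its 51701 highest-scoring summits, called equal length. Percentiles of single genes and regions, and counts of merged regions, are from the lists as deposited unless equal length is named.

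Markers of limb cells were checked at their own promoters, meaning a summit within 1 kb of an annotated start. The shares over all protein-coding genes were 57.5% with a promoter summit in all 4 lists and 34.5% in none. Of 11 limb mesenchyme markers, 7 had a promoter summit in all 4 lists and Tbx5, the forelimb factor, had none. None of the 6 ectoderm and ridge markers was called in all 4 lists, and the keratin genes Krt5 and Krt14 were called in none. The blood genes Gata1 and Hbb-b1 and the endothelial genes Kdr and Tal1 were called in all 4, while Pecam1, Cdh5 and Ptprc were called in none. Klf1, of blood, was called in 3 lists and Tek, of endothelium, in 1. The muscle precursor genes Pax3, Myf5 and Myod1 were called in 2, 1 and 3 lists. All 4 liver markers were in no list, but the neural genes Pax6 and Olig2 were called in all 4 and Neurog1 in 3. The part of these cell types in the forkhead values was not tested.

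The sequences of 6 forkhead promoters with different calls, described below, are given as examples of base composition. Each is the 300 bases just before the most upstream annotated start, read from mm9 on the strand of the gene, and overlaps no annotated exon. Capitals mark GC boxes (GGGCGG or CCGCCC), the site of Sp-type factors, and forkhead cores (TGTTTAC or GTAAACA), the short sequence that forkhead domains bind. Foxn2 (chr17:88839751-88840050, plus strand) and Foxo1 (chr3:52071959-52072258, plus strand) were chosen as promoters called in all 4 lists at high percentiles, and Foxc1 (chr13:31898215-31898514, plus strand) as one called in all 4 at low percentiles. Foxf2 (chr13:31717385-31717684, plus strand) was called in 1 list. Foxd3 (chr4:99322690-99322989, plus strand) and Foxi1 (chr11:34108090-34108389, minus strand) were called in none.
Foxn2: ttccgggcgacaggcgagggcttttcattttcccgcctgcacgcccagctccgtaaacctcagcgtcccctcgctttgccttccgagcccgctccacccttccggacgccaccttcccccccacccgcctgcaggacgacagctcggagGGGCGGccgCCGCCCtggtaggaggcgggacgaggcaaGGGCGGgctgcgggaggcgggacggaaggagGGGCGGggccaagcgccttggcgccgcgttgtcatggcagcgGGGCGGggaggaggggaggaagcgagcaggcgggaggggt
Foxo1: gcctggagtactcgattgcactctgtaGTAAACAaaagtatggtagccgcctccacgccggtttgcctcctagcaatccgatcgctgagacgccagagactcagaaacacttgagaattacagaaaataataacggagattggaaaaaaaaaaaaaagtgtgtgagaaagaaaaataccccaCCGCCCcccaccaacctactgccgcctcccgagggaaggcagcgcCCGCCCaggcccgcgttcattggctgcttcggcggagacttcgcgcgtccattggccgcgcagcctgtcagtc
Foxc1: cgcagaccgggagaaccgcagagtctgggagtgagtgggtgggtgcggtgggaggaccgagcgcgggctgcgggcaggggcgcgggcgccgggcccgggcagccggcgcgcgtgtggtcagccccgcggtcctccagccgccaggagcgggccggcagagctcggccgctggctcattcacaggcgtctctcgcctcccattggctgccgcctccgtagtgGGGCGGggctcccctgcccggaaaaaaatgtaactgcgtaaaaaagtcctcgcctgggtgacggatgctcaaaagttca
Foxf2: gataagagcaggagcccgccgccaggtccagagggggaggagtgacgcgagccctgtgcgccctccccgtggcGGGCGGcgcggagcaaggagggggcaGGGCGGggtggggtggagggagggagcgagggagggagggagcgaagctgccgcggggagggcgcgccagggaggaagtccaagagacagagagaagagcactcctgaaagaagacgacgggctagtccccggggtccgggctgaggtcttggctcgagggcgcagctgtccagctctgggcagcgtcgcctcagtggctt
Foxd3: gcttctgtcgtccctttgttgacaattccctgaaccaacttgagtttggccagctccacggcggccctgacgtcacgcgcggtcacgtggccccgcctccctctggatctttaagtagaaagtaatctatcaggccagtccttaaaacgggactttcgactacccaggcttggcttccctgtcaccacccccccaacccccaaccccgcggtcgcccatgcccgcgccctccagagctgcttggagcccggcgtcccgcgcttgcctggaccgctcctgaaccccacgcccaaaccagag
Foxi1: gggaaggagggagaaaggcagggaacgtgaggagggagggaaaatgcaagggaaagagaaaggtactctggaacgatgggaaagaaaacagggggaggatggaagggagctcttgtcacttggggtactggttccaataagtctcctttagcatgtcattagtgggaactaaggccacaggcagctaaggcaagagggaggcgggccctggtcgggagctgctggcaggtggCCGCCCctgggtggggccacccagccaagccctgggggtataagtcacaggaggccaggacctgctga
The Foxn2 window held 33 CpG dinucleotides and 5 GC boxes, and the Foxc1 window as many CpG dinucleotides with 1 GC box. The Foxo1 window held 22 CpG dinucleotides, 2 GC boxes and 1 forkhead core. The Foxf2 window had 25 CpG dinucleotides and 2 GC boxes, the Foxd3 window 22 and none, and the Foxi1 window 5 and 1.

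Promoter summits at forkhead genes were found in 28 and 31 members in the stop cassette lists and in 24 and 30 in the wild-type lists. Over all protein-coding genes the share with a promoter summit was 61.5%, 64.5%, 59.1% and 61.6% in the same order, beside 65.1%, 72.1%, 55.8% and 69.8% of the forkhead genes. In every list 22 forkhead genes had one, which is 51.2% of the set where 57.5% of all genes did. For 17 of the 22, each list held a promoter summit that was not within 1 kb of another gene's start. For 6 of the 22, some or all promoter summits lay also within 1 kb of another gene's start. All-gene shares of this sharing are not given. No list held a promoter summit for 10 members, or 23.3%, where the share of all genes was 34.5%. The other 11 members, 25.6%, had one in 1 to 3 lists, beside 7.99% of all genes. In bulk tissue, fewer cells with an open promoter and a less open promoter per cell cannot be told apart.

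**Figure D1:**
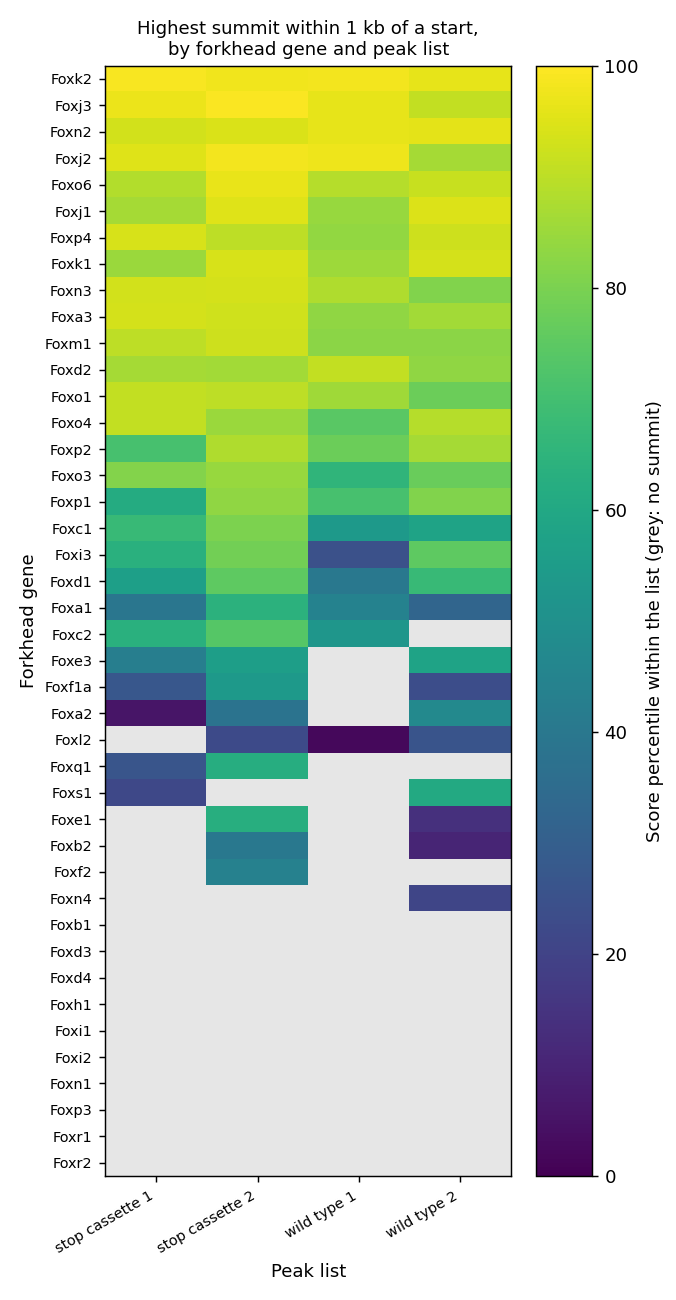
Percentile, within its own list, of the highest-scoring summit within 1 kb of a start for 42 forkhead genes (rows) in the 4 peak lists (columns), with grey for no summit. The 21 genes in the upper rows are filled in every column, the 11 below them in part, and the lowest 10 are grey throughout.

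The 7 genes of the cell cycle and widely expressed group, Foxj2, Foxj3, Foxk1, Foxk2, Foxm1, Foxn2 and Foxn3, had promoter summits in all 4 lists. The median of their mean percentiles was 94.4. Foxk2, a widely expressed regulator of metabolism and autophagy, stood highest of the set, with percentiles of 98.8 and 98.0 in the stop cassette lists and 98.2 and 96.2 in the wild-type lists. Its groups overlapped, since the first wild-type library lay between both stop cassette libraries. Foxj3 followed with 97.2 and 99.4 against 96.2 and 90.9, where both stop cassette values were above both wild-type values. Over the 4 lists, 8 of the Foxj3 promoter summits lay also within 1 kb of a start of AA415398. Foxj2 had 95.2 and 98.2 against 97.6 and 86.5, and the groups overlapped. Over the 4 lists, 11 of the Foxj2 promoter summits lay also within 1 kb of a start of Gm4485. Foxn2 had 93.3 and 94.3 against 96.4 and 96.0, and was the one member lower in both stop cassette lists. Foxm1, the activator of mitotic genes, had 90.1 and 92.4 against 82.5 and 82.7, but its summits also lay within 1 kb of a start of 5930416I19Rik.

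All 4 FoxO genes, whose proteins act on stress resistance, metabolism and cell survival, were called in every list. Foxo6 had percentiles of 88.5 and 96.9 in the stop cassette lists and 88.8 and 91.8 in the wild-type lists, and the groups overlapped. Foxo1 had 90.6 and 90.1 against 85.8 and 77.7, and Foxo3 had 81.4 and 84.6 against 65.6 and 77.2. In both genes the stop cassette libraries were above both wild-type libraries in the lists as deposited. Foxo4, on the X chromosome, had 90.9 and 84.9 against 74.2 and 88.7, with overlapping groups. Another summit region centred 1378 bp before the Foxo3 start, outside the promoter limit, was held by all 4 lists.

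Of the 4 FoxP genes, Foxp1, Foxp2 and Foxp4 were called in every list and Foxp3, the factor of regulatory T cells, in none. Foxp4 had the highest percentiles, 94.0 and 90.1 in the stop cassette lists and 83.8 and 92.3 in the wild-type lists. Foxp2, known for its part in speech and song circuits, had 71.1 and 87.9 against 77.7 and 86.5, and Foxp1 had 61.6 and 83.4 against 70.9 and 81.0. For all 3 genes the groups overlapped.

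The mesoderm and mesenchyme group has the forkhead genes nearest in known function to limb mesenchyme, and its 7 members spread over the patterns: Foxc1, Foxd1 and Foxd2 were called in 4 lists, Foxc2 and Foxf1a in 3, Foxs1 in 2 and Foxf2 in 1. The median of their mean percentiles was 59.8, against 94.4 in the widely expressed group. Each mean is over the lists that held a promoter summit, which for Foxc2, Foxf1a, Foxs1 and Foxf2 were not all 4. Foxc1, which acts in skeletal and vascular development, had percentiles of 67.5 and 80.5 in the stop cassette lists and 53.6 and 58.0 in the wild-type lists. Foxd1, best known from kidney stroma, had 56.5 and 75.2 against 39.9 and 67.4, with overlapping groups. Foxd2 was higher, with 86.4 and 86.0 against 90.7 and 83.6, but its summits lay also within 1 kb of a start of 9130206I24Rik. Foxc2, which acts in lymphatic and skeletal development, had 63.4 and 73.6 in the stop cassette lists and 52.6 in wild type 1, with no promoter summit in wild type 2. Foxf1a had 27.3 and 54.3 in the stop cassette lists and 23.8 in wild type 2. Of the Foxf1a promoter summits, 3 lay also within 1 kb of a start of 1110050K14Rik. Foxf2 had promoter summits in stop cassette 2 alone, 2 in number, the higher-scoring at 44.0. Foxs1 had 21.6 in stop cassette 1 and 60.9 in wild type 2.

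Among the 11 genes of endoderm and epithelia, Foxa1, Foxa3, Foxi3 and Foxj1 were called in 4 lists, Foxa2 and Foxe3 in 3, Foxe1 and Foxq1 in 2, and Foxi1, Foxi2 and Foxn1 in none. Foxj1, the master factor of motile cilia, had percentiles of 86.5 and 95.2 in the stop cassette lists and 84.4 and 94.7 in the wild-type lists, which overlapped. Foxa1, a pioneer factor of endoderm, had the lowest mean of the 22 genes called throughout, with 39.4 and 64.1 against 44.4 and 32.5. Foxi3, which acts in ectodermal placodes, varied most between wild-type libraries among the lowest 4, with 63.3 and 78.5 against 24.9 and 75.4. Foxa3 had 93.5 and 92.7 against 83.5 and 86.1, and all of its promoter summits lay within 1 kb of a start of Sympk, the gene next to it.

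Foxq1, known from hair shaft formation, was the only member with a promoter summit in both stop cassette lists and in neither wild-type list. Its percentiles were 26.5 and 62.2. That is 1 of 43 members, beside 1.03% of all genes with this pattern. No member had the opposite pattern, which 0.0537% of all genes had. Another region, centred 1660 bp after the Foxq1 start and at a start of A530084C06Rik, was held by all 4 lists at 2.3, 70.0, 60.2 and 27.3. With 2 kb to a start Foxq1 was called in all 4 lists, and Foxd3 was the member in stop cassette alone. With only summits scoring above the pooled median of 5.83, that member was Foxc2. At equal length the Foxq1 pattern was gone and no member separated in that direction. Foxl2, the ovarian factor, was then called in both wild-type lists alone. Its stop cassette 2 summits, at most 22.4 as deposited, were cut. Wild type 1, which held Foxl2 at 2.0, is the list that was not shortened. All-gene shares of these patterns at equal length are not given.

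The other 3 partial calls in this group were all in stop cassette 2 and wild type 2 and none was in wild type 1. Foxe3, the lens factor, had percentiles of 42.7, 56.2 and 58.1 in stop cassette 1, stop cassette 2 and wild type 2. Of its 2 promoter summits in stop cassette 1, the higher-scoring one lay 943 bp from a start, close to the limit of 1 kb. Foxa2, the notochord and endoderm factor, had 5.6 and 38.0 in the stop cassette lists and 46.9 in wild type 2. Foxe1, the thyroid factor, had 62.6 in stop cassette 2 and 14.0 in wild type 2, and these summits lay also within 1 kb of a start of Gm12446.

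In the nervous system and neural crest group, Foxb2 had percentiles of 40.2 in stop cassette 2 and 10.5 in wild type 2, and Foxn4, a factor of retina and spinal cord interneurons, had 20.7 in wild type 2 alone. Foxb1, Foxd3 and Foxd4 had none. For Foxd3, the neural crest factor, summits lay outside the limit, 1080 bp from the start in stop cassette 1 and 1670 bp in stop cassette 2, at percentiles of 12.9 and 14.5, both within 1 kb of a start of BX005053.1.

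The remaining group of gonad, germ line, early embryo and other genes had 4 members. Foxl2 had percentiles of 22.4 in stop cassette 2 and 2.0 and 26.1 in the wild-type lists, among the lowest of the set. Of the Foxl2 promoter summits, 3 lay also within 1 kb of a start of Foxl2os. Foxh1, the Smad partner of Nodal signalling, Foxr1 and Foxr2 had no promoter summit. The nearest region to Foxh1, centred 1897 bp before its start, was held by all 4 lists at 92.5, 96.6, 83.1 and 90.5 and lay at a start of Ppp1r16a.

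The 11 partly called members were missing most often from wild type 1, which has the shortest list. Wild type 1 held 2 of them and lacked 9. Stop cassette 1 held 6, stop cassette 2 held 9 and wild type 2 held 8. Shares of each list among all genes called in 1 to 3 lists are not given, so these counts cannot be set beside all genes. Of the 11, 6 are genes with 1 exon. Overall 11 forkhead genes have 1 exon, of which 3 were called in 4 lists, 6 in 1 to 3 lists and 2 in none. Among all single-exon protein-coding genes the share was 14.6% in 4 lists and 4.78% in 1 to 3. Of the 32 forkhead genes with more exons, 19 were called in 4 lists and 5 in 1 to 3, beside 63.7% and 8.46% of such genes overall.

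Between genotypes, the number of forkhead genes with a promoter summit was 29.5 ± 2.12 (SD, n = 2) in stop cassette and 27.0 ± 4.24 (SD, n = 2) in wild type. The difference of 2.5 genes was smaller than the wild-type spread (two-sided exact permutation test over libraries, p = 0.667, where the smallest p that 2 against 2 libraries allow is 0.333). Without wild type 1 the difference was -0.5. At equal length the lists held 24, 27, 24 and 26 such genes, a difference of 0.5 (exact permutation test, p = 1). These are 55.8%, 62.8%, 55.8% and 60.5% of the set, beside 57.7%, 59.8%, 59.1% and 59.4% of all genes. The same 22 genes, 51.2%, were called in all 4 lists of equal length, beside 54.7% of all genes.

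Promoter percentiles were compared over the 22 genes called in all 4 lists. Their median was 87.5 and 90.1 in the stop cassette lists and 83.6 and 84.8 in the wild-type lists, means of 88.8 ± 1.83 and 84.2 ± 0.842 (SD, n = 2 each). The difference of 4.56 reached the smallest p the design allows (two-sided exact permutation test, p = 0.333). Over all genes called in all 4 lists, the medians were 90.9, 93.7, 86.0 and 89.6, above the forkhead median in each list. At equal length the forkhead medians were 80.9 and 79.3 against 83.6 and 79.9, and the difference turned to -1.66. The all-gene medians were then 86.9, 87.5, 86.9 and 87.1.

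In 8 of the 22 genes, 36.4%, both stop cassette percentiles were above both wild-type percentiles, beside 41.2% of the 12860 genes called in all 4 lists. Among them were Foxa3, Foxc1, Foxj3, Foxm1, Foxn3, Foxo1 and Foxo3. Foxn2 was lower in both, 1 of 22, beside 4.34%. At equal length only Foxa3 and Foxm1 were higher in both stop cassette lists, beside 20.2% of genes, and Foxn2, Foxp1 and Foxp2 were lower, beside 19.9%.

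The neighbourhood of a gene was taken as its body and 50 kb on either side. Over the 43 genes these held 402 and 520 summits in the stop cassette lists and 255 and 338 in the wild-type lists. The means were 461 ± 83.4 and 296.5 ± 58.7 (SD, n = 2 each), a difference of 164.5 summits (two-sided exact permutation test, p = 0.333, the smallest possible). At equal length the counts were 260 and 255 against 255 and 260, with no difference in the means. As a share of its list this was 0.508% (95% Wilson interval 0.461 to 0.560%) and 0.482% (0.443 to 0.525%) in stop cassette, and 0.493% (0.436 to 0.557%) and 0.494% (0.444 to 0.549%) in wild type. The intervals cover counting error only. The share differed by 0.00186 percentage points (exact permutation test, p = 1), less than the SD of 0.0184 in stop cassette. Without stop cassette 1 the difference was -0.0112.

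The number of summits was higher in both stop cassette lists than in either wild-type list at 20 of the 43 genes, 46.5%, where 46.9% of all genes showed this. No gene had fewer in both, beside 1.04% of all genes. At equal length, 5 genes had more (Foxc2, Foxi2, Foxk1, Foxk2 and Foxn2), beside 12.3% of all genes, and 4 had fewer (Foxd1, Foxl2, Foxp1 and Foxr1), beside 9.22%. Without stop cassette 1 the count with more was 34. That count compares only stop cassette 2, the longest list, with the wild-type lists, and its all-gene share is not given.

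**Figure D2:**
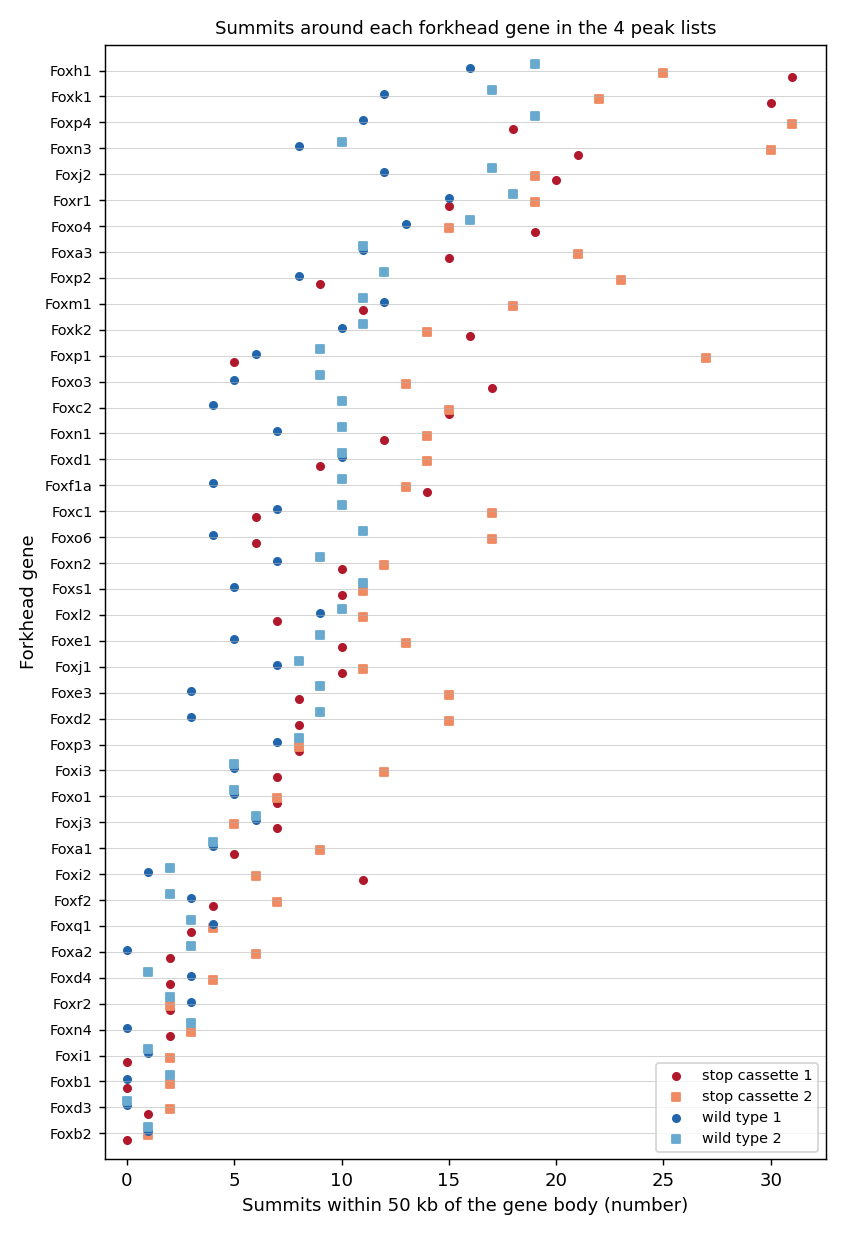
Number of summits (horizontal axis) in the body and the 50 kb on either side of 42 forkhead genes (vertical axis), one point for each of the 4 lists. Red and orange points of the stop cassette lists lie to the right of the blue wild-type points for 19 of the genes shown, and no gene shows the opposite order in both.

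By the mean over the 4 lists Foxh1 had the most summits, with 31 and 25 in the stop cassette lists and 16 and 19 in the wild-type lists. It has no promoter summit of its own, and starts of 10 other genes lie within its 50 kb. Per kilobase its neighbourhood stood at percentile 98.9 among all genes. Foxk1 had 30 and 22 against 12 and 17, and Foxj2 had 20 and 19 against 12 and 17. In these 3 genes both stop cassette libraries were above both wild-type libraries. Foxr1 had 15 and 19 against 15 and 18, and its groups overlapped.

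Foxn3 had 21 and 30 summits in the stop cassette lists and 8 and 10 in the wild-type lists, and Foxp4 had 18 and 31 against 11 and 19. Foxp1 had 5 and 27 against 6 and 9, and all but 2 of the summits of stop cassette 2 lay in the gene body, 25 in number. Foxp2 had 9 and 23 against 8 and 12. In Foxp1 the stop cassette libraries lay on both sides of the wild-type libraries, and at equal length it had 3 and 5 against 6 and 6. A Foxp2 intronic region 54885 bp before the nearest Foxp2 start was held by all 4 lists, at 45.0, 86.5, 70.2 and 80.0.

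At the low end, Foxb2 had 0, 1, 1 and 1 summits in the 4 lists, Foxb1 had 0, 2, 0 and 2, and Foxi1 had 0, 2, 1 and 1. Foxd3 had 1 and 2 in the stop cassette lists and none in wild type, and a summit count this low allows no comparison. No member was without a summit in every list. The median over members was 9 and 13 in the stop cassette lists and 5 and 9 in the wild-type lists, beside 8, 10, 5 and 7 over all genes. Foxi2, an ectodermal factor with no promoter summit, had 11 and 6 against 1 and 2, and a region 12393 bp before its start was held by all 4 lists at 92.2, 88.7, 85.7 and 82.8.

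Forkhead genes that lie near one another share part of their neighbourhoods, so their counts are not independent. Foxd2 and Foxe3 on chromosome 4 are 16178 bp apart, and 8, 15, 3 and 9 summits, all of the summits counted for either gene, were counted for both. Foxf1a and Foxc2 on chromosome 8 are 29220 bp apart and shared 14, 13, 4 and 10. On chromosome 13, Foxq1 and Foxf2 are 64846 bp apart and shared 1, 2, 2 and 2 summits, while Foxf2 and Foxc1, 175243 bp apart, shared none.

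Around Foxf1a and Foxc2, the strongest region was not at a forkhead start but at a start of Mthfsd, 8004 bp before Foxc2, with percentiles of 97.4 and 97.9 in the stop cassette lists and 83.4 and 86.9 in the wild-type lists. A region 2580 bp before Foxc2 was held by 3 lists, at 69.2 and 68.3 in stop cassette and 33.1 in wild type 2. A region 8300 bp after the Foxf1a start was held only by the stop cassette lists, at 42.3 and 60.0. Near Foxc1, regions 5294 bp before the start and 14224 bp and 47148 bp after it were held by all 4 lists. The first of these had 61.0 and 77.4 against 28.6 and 54.8. The second had 12.6 and 61.8 against 19.2 and 24.2, so its groups overlapped, and the last had 71.6 and 80.6 against 20.5 and 70.6. A region 6810 bp after the Foxf2 start was held by 3 lists, at 64.7 and 74.3 in stop cassette and 2.28 in wild type 1.

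**Figure D3:**
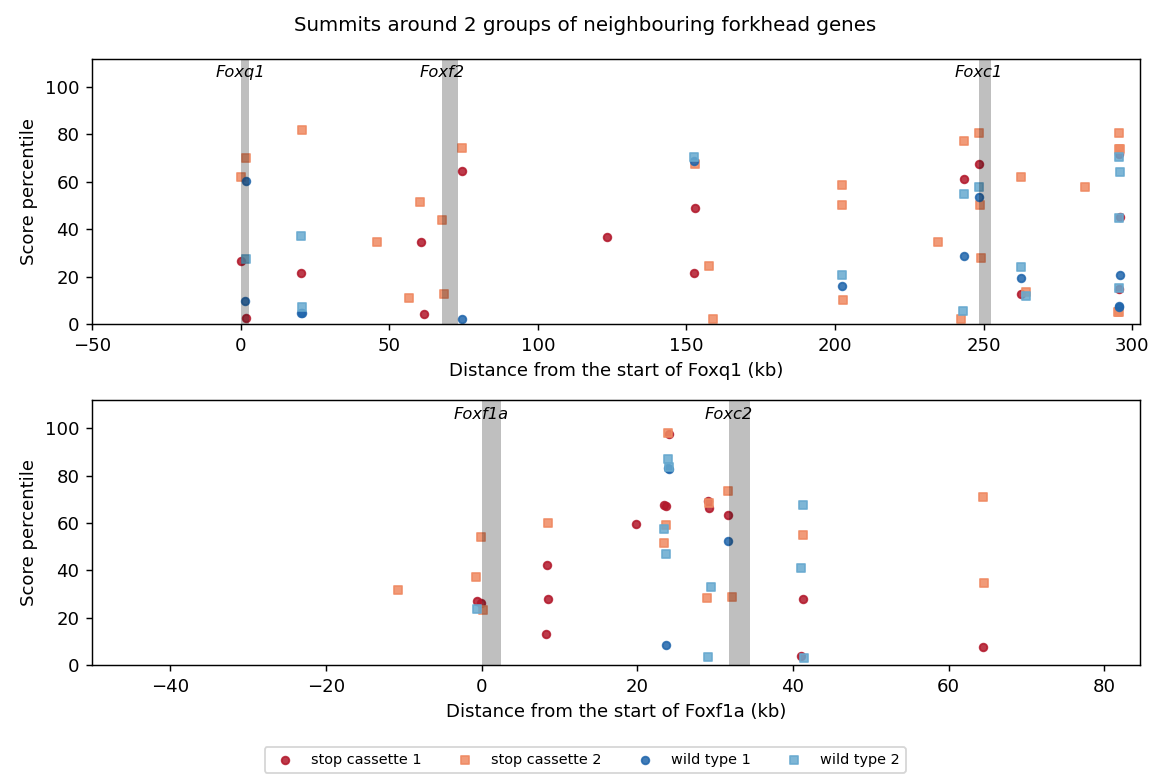
Score percentile within its list (vertical axis) of each summit around Foxq1, Foxf2 and Foxc1 (upper panel) and around Foxf1a and Foxc2 (lower panel), by distance in kilobases from the start of the leftmost gene (horizontal axis), with colour and shape for the 4 libraries and grey bands for the genes. The highest points of the lower panel, between the bands, lie at the Mthfsd start, at 97.4 and 97.9 in stop cassette and 83.4 and 86.9 in wild type.

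Summits of the 4 lists were also merged into regions, each summit taken with 250 bp on either side. Of 354 regions within 50 kb of a forkhead gene, 119 were held by all 4 lists, 33.6%, beside 32.0% of all 74585 regions. The share was 70.4% of the 71 regions at a start of another gene and 52.3% of the 44 at a forkhead gene's own start. It was 14.5% of the 76 in a forkhead gene's own intron and 22.2% of the 153 elsewhere. With all starts taken as one class, it was 63.5% of regions at starts near forkhead genes and 71.5% of all regions at starts, and away from starts 19.2% and 19.0%. None of the 7 in a forkhead gene's own coding exon was held by all 4. All-region shares for introns, coding exons and the other single places are not given. Both stop cassette lists but no wild-type list held 31 of the regions, 8.76%, beside 10% of all regions. No region had the opposite pattern, which 0.314% of all regions had.

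Promoter base composition was read from the 300 bp before the most upstream start of each gene. The median number of CpG dinucleotides was 19 for forkhead genes and 9 for all genes, and the median GC content was 62.7% and 53.3%. It was 23 CpG dinucleotides for the 22 forkhead genes called in all 4 lists, 15 for the 11 called in 1 to 3 lists and 5.5 for the 10 called in none. Over all genes it was 17 for those in all 4 lists and 2 for those in none. GC boxes were found in 30 forkhead windows, 69.8%, beside 40.9% of all windows, and the TATA box letters (TATAAA, either strand) in 6, 14%, beside 14.6%. The forkhead core was found in the Foxa1 and Foxo1 windows only, 4.65%, beside 3.46% of all windows. No overlap between these motifs is counted, and a window without the letters says nothing about binding.

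Genes were then set side by side within classes of like CpG content. In the class with 21 to 68 CpG dinucleotides, 13 of 19 forkhead genes were called in all 4 lists, 5 in 1 to 3 and 1 in none, where 93.2% of all genes were called in all 4 and 5.05% in 1 to 3. The genes in 1 to 3 lists were Foxe1, Foxf1a, Foxf2, Foxl2 and Foxq1, and the gene called in none was Foxd3. In the class with 10 to 20, 5 of 11 were called in all 4, where 86.7% of all genes were. The 4 called in part were Foxb2, Foxc2, Foxe3 and Foxn4, and the 2 in none were Foxb1 and Foxr1. In the class with 4 to 9, 3 of 9 were called in all 4, where 44.4% of all genes were, and in the class with 0 to 3 it was 1 of 4, where 10.6% were. These shares are descriptions, with no test. The lowest classes include Foxp1, Foxn3 and Foxk2, called in all 4 lists at later starts: the strongest summit lay 238293 bp after the most upstream start of Foxp1, 56978 bp after that of Foxn3 and 4432 bp after that of Foxk2.

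**Figure D4:**
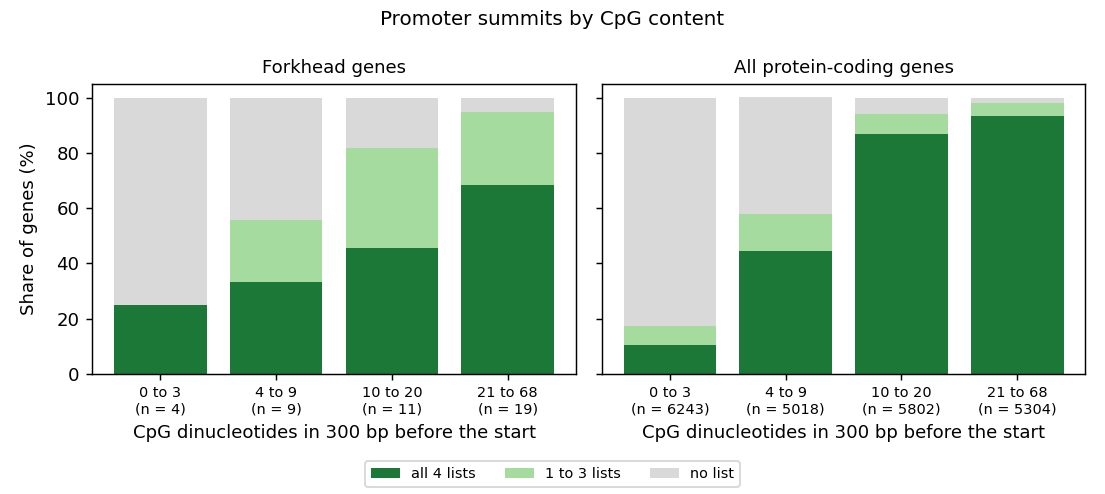
Share of genes (vertical axis, percent) with a promoter summit in all 4 lists, in 1 to 3 lists and in none, by the number of CpG dinucleotides in the 300 bp before the start (horizontal axis), for the forkhead genes on the left and all protein-coding genes on the right. In the class with most CpG dinucleotides the bar for all 4 lists stands at 13 of 19 forkhead genes, and at 93.2% of all genes.

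Genes known to act with forkhead factors were nearly all called. Of 32 genes in the partner lists, 30 had a promoter summit in all 4 lists and none was missing from every list, beside 57.5% of all genes in all 4. The 6 FoxO targets (such as Cdkn1b, the cell cycle inhibitor, and Sod2, the mitochondrial superoxide dismutase), the 5 genes of the Foxm1 circuit and the 3 Smad genes were called throughout. Of the 12 genes of insulin signalling to FoxO, 11 were, and Igf1r, the insulin-like growth factor receptor, lacked a summit in wild type 1, with 72.3 to 78.4 in the others. Of the 30 partner genes called in all 4 lists, 9 had a higher percentile in both stop cassette lists, beside 41.2% of all such genes, and 4 (Insr, Cat, Gadd45a and Smad2) a lower one, beside 4.34%. At equal length 4 of 29 (Akt1, Sgk1, Smad3 and Aurkb) were higher, beside 20.2%, and 11 were lower, beside 19.9%. Akt1, the kinase that phosphorylates FoxO proteins, had 81.4 and 74.2 in the stop cassette lists and 40.8 and 40.4 in the wild-type lists as deposited, and 71.6 and 46.1 against 40.8 and 21.1 at equal length. Of the 6 Hedgehog pathway genes, 5 were called in all 4 lists and Shh in stop cassette 2 alone, at 28.5. Gli1, the transcription factor and Hedgehog target, had 14.2 and 62.9 against 20.8 and 31.9, with overlapping groups. The partner lists were chosen for known roles and hold many widely expressed genes.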

How the data were processed

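ATAC-seq libraries of E11.5 mouse limbs, 2 per genotype, were aligned to mm9 with Bowtie2 2.2.6, and Picard is also named, per the submitters' processing notes. Summit names in the deposited lists record the removal of duplicates and chrM reads and a mapping quality limit of 30. The peak caller, its control and any shift of reads for transposase binding are not given in the sources used here. The deposited score was read as −log10 of a q-value, since the lowest score of a list was 1.30 to 1.31, near a q-value of 0.05, and was used only as a percentile within its list.

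Starts came from GENCODE M1 (mm9). A promoter summit lay within 1 kb of any start of a gene, and the highest-scoring one gave its percentile. Groups were compared over libraries by two-sided exact permutation tests (6 assignments). Python 3.11.15, numpy 2.4.6, scipy 1.17.1 and pandas 2.3.3 were used. In a simulated list, 200 of 200 planted promoter summits were recovered, and 400 of 400 gene counts were equal to a direct recount of the same list.

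The members, gene lists and alternatives were chosen with earlier results of these data known. Named with values were members whose promoter pattern separates the genotypes, the 6 highest and 4 lowest mean promoter percentiles among members called in all 4 lists, members called in part, the 6 with most summits within 50 kb and clustered members. Other values were named after they were seen. A member that is part of all counts is not reported by name here. Alternatives tried were list length, score threshold, distances, starts, symbols, summit choice, shared summits, a replicate block and leaving out each library. Of 38 marker symbols, Spi1 and Sox1 were not found in the annotation.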

Additional observations from a re-analysis of the deposited data

How the results depend on the processing

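At equal list length, members called in the stop cassette libraries alone went from 1 to 0, the opposite pattern went from 0 to 1, members with more and with fewer summits within 50 kb were 5 and 4, and the difference in median percentile was -1.66. With counts divided by list length, members with more and fewer summits were 4 and 8. With 500 bp to a start, 3 members were called in stop cassette alone, and with 10 kb neighbourhoods 1 member had fewer summits. With the nearest summit the difference in median percentile was -2.02, and above the pooled median score of 5.83 the difference in share was -0.00984 and that in median percentile 14.8. The difference in share was 0.0177 with 10 kb neighbourhoods, 0.00944 with 100 kb and 0.0548 without summits at starts of other genes, all larger than the 0.00186 reported. The first and the last reached the smallest p possible (two-sided exact permutation test, p = 0.333 each), and the 100 kb difference did not. The difference in members with a promoter summit was 4.5 above the pooled median score and 5 with 500 bp to a start. Only the 500 bp difference reached the smallest p possible (two-sided exact permutation test, p = 0.333). Members with a higher and a lower percentile in both stop cassette lists were 2 and 3 at equal length, an alternative chosen after seeing the data, as was that for the partner genes. Leaving out each library in turn gave -0.5 to 5.5 for members with a promoter summit and 22 to 25 for members in all lists. It gave 1 to 4 and 0 to 1 for members called in every remaining list of 1 genotype and none of the other. The share ranged from -0.0112 to 0.0149, more and fewer summits from 21 to 34 and 0 to 6, and the median percentile from 3.27 to 6.56. The causes were not tested. All-gene shares for the counts under alternatives other than equal length are not given, so those counts cannot be set beside all genes.

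The replicate block gave 2.5 members (exact sign-flip p = 0.5, the smallest that 2 pairs allow), 0.00186 percentage points (exact p = 1) and 4.56 percentile points (exact p = 0.5), and changed no call. Libraries with the same number had a correlation of deviations of 0.140 over 43 members, and the labels give the numbers no shared origin. With 2 libraries a group no p under 0.333 is possible.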

Other observations

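The letters of the forkhead core (TGTTTAC or GTAAACA) were also counted in the summit regions. Away from starts, 14 of 239 regions near forkhead genes held them, 5.86%, beside 5.22% of 56075 such regions overall. At starts, 2.61% of the regions near forkhead genes did, beside 2.39% of 18510. Members called in all 4 lists had a median gene length of 22862 bp and those called in none 3500.5 bp. Their neighbourhoods stood at median percentiles of 70.9 and 36.1 of all genes by summits per kilobase. The promoter summits that define these sets are counted in the neighbourhoods, so part of this difference follows from the choice of sets. Values for all genes called in all 4 lists or in none are not given. Foxd1 had 9 and 14 summits within 50 kb in the stop cassette lists and 10 in each wild-type list, and at equal length 5 and 4 against 10 and 8.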
